A study of Homo sapiens with 6 samples.

Results

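Interleukins and the chains of their receptors were examined in the human Jurkat line, derived from a T-cell acute lymphoblastic leukaemia, with and without a short exposure to the chemokine CXCL12. The genes were chosen by symbol, among probe sets annotated with 1 gene symbol only: every such symbol that starts with IL followed directly by a digit. This gave 83 of 17687 named genes. Of these, 39 encode ligands, 41 encode receptor chains and 3 encode antagonists or binding proteins (IL1RN, IL36RN and IL18BP). Each was represented by 1 probe set. All cells were grown with 10% serum and then kept without serum for 90 min. The untreated group (n = 3) received nothing further, and the CXCL12 group (n = 3) received 100 ng/ml CXCL12 for 15 min. RNA of each sample was measured on its own Affymetrix array, whole-transcript labelled, and the replicates are called biological. The labels do not say that each came from its own culture, so every p-value reflects only how far these 6 samples vary, and some of that may be technical. The model is 1 leukaemic line, and no other cells were present to send or receive a cytokine.

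Interleukins are small secreted proteins by which immune cells instruct each other. Most bind receptors built from several chains: a chain particular to the cytokine pairs with a shared one, such as the common gamma chain (IL2RG), gp130 (IL6ST) or IL10RB, and the pair signals through JAK kinases to STAT transcription factors. Receptors of the IL-1 family signal through the adaptor MYD88 instead, and those of the IL-17 family through their own adaptor, TRAF3IP2. In T cells the common gamma chain cytokines IL-2, IL-4, IL-7, IL-9, IL-15 and IL-21 govern growth and survival, and most interleukin genes are silent until the cell is activated.

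Values are log2 signals, where a difference of 1 is a 2-fold difference. Each probe set has its own affinity, so a level places a gene against the distribution of all probe sets and is not a number of transcripts. The 25th percentile of all probe-set means, a log2 signal of 4.44, marks the limit below which a probe set was called dim and left out of the main test. It is not a detection limit. The 12 T-lineage markers examined were all above it, with mean signals from 6.21 to 11.42. But so were B-lineage CD79A, CD79B and PAX5, at means up to 7.92, and fibroblast COL1A1, COL1A2 and DCN, at means up to 7.85. Of the 14 B-lineage, myeloid and fibroblast markers with a probe set, 10 were above the limit. A signal above the limit was therefore not read as expression, for receptor chains as for ligands. Untreated replicate 1 stood apart from the other arrays, with a mean correlation with them of 0.982 against 0.987 to 0.989 for the rest, so values that rest on it are also given without it.

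Interleukin genes lay low in these cells. Of the 83 genes, 38 (45.8%) were at or above the limit, against 76.1% of all named genes, and their median gene lay at percentile 22.5 of all probe sets. Of the 39 ligands, 16 (41.0%) were at or above it, and of the 41 receptor chains 21 (51.2%). Both shares are below that of all named genes, and the gap between them amounts to a few genes. No test was made of these shares, since the genes are not replicates. The members just inside the limit were IL5RA, IL12RB1 and IL10RA, with means of 4.48, 4.48 and 4.50. Those just outside were IL19, IL20 and IL36RN, with 4.35, 4.32 and 4.26. Of these 6 genes, 5 had single arrays on both sides of the limit, and IL12RB1 was above it, if barely, in every array.

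**Figure D1:**
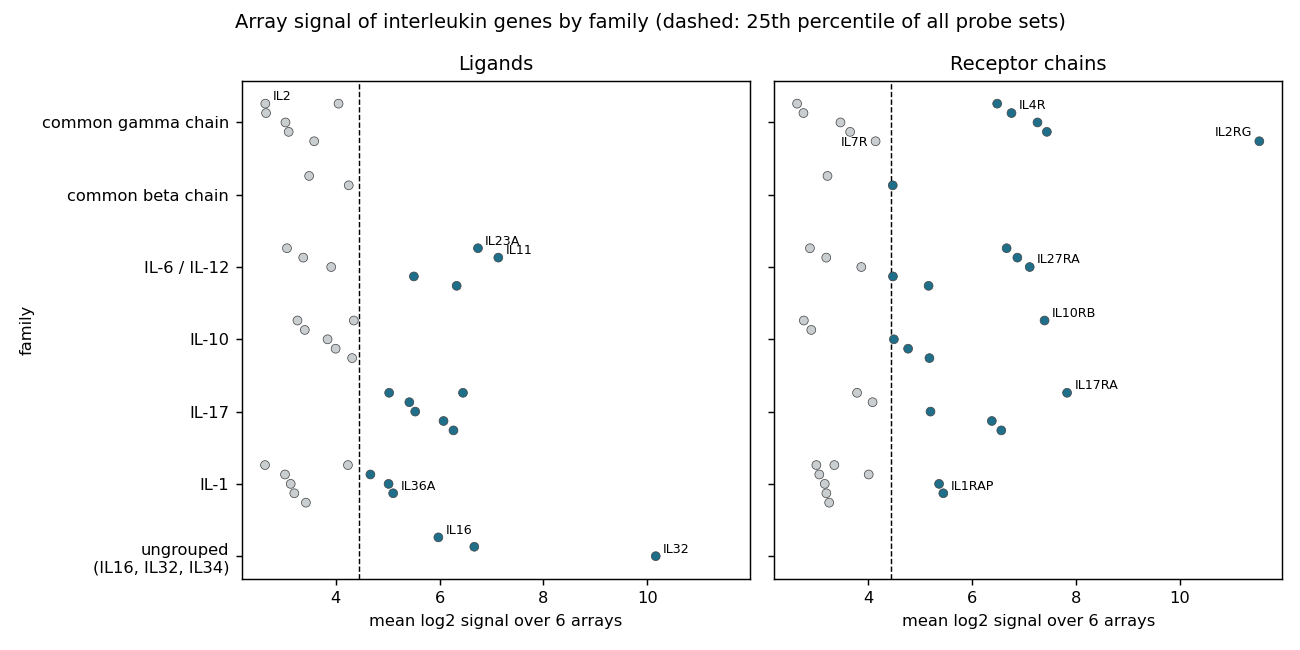
Mean log2 signal over the 6 arrays (x axis) of each ligand (left) and receptor chain (right), 1 point a gene, grouped by family. Filled points are at or above the 25th percentile of all probe sets, 4.44 (dashed line), and grey points below it. All 6 ligands of the IL-17 family are above. All 6 of the common gamma chain family, with which IL13 is grouped here, and all 6 of the IL-10 family are below.

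The stretches before the annotated starts show a sequence feature on which the choice of genes did not rest: most hold few CG dinucleotides. These starts are those of RefSeq transcripts and were not checked against the starts used in these cells. A stretch may therefore miss the proximal promoter in use, for IL2 among others. RefSeq windows (GRCh38.p14) matched 67 of the 83 genes, and the 250 bases before each start were searched for CG, which reads the same on both strands, and for TATAAA on either strand. At least 10 CG per window (averaged where a gene has several windows) were found for 20 of 67 genes (29.9%), against 71.8% of the 14236 named genes with a window. The share was 14.3% for ligands (4 of 28) and 44.4% for receptor chains (16 of 36). TATAAA was present for 26.9% of the 67 genes, against 11.7% of all. Among receptor chains, those above the signal limit held 10 or more CG in 8 of 19 cases and those below in 8 of 17. Among ligands, it was 3 of 12 above the limit and 1 of 16 below it. The 100 bases before the annotated start of 5 genes, each with 1 window, are printed 5′ to 3′ to show the contrast, with CG in capitals. IL27RA and IL10RB are, of the receptor chains above the limit, those nearest to a difference with CXCL12. IL2RG, IL2 and IL7R mark the common gamma chain system. That family, with which IL13RA1 is grouped here, holds both kinds, so the printed genes do not stand for the whole of it. In the 250 bases searched, IL4R held 35 CG and IL13RA1 28, while IL2RA held 3 and IL21R 0.
IL27RA (chr19:14031662-14031761, plus strand): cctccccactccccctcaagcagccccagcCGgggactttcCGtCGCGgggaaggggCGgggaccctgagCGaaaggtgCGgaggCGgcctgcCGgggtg
IL10RB (chr21:33266267-33266366, plus strand): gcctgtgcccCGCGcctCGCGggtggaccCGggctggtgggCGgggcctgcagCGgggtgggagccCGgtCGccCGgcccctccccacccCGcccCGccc
IL2RG (chrX:71111578-71111677, minus strand): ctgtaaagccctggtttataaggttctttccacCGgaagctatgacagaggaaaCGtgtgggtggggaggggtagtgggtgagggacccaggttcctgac
IL2 (chr4:122456726-122456825, minus strand): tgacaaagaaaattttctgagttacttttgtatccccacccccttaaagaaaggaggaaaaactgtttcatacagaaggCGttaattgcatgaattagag
IL7R (chr5:35856791-35856890, plus strand): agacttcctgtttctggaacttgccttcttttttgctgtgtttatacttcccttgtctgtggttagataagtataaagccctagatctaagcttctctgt
These stretches hold 9 CG for IL27RA, 12 for IL10RB, 2 for IL2RG, 1 for IL2 and none for IL7R. IL2RG, whose signal is among those of the top percent of probe sets, and IL2, whose signal is among the lowest, are thus both poor in CG.

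Receptor chains of the common gamma chain family ranged over nearly the whole scale. The IL-13 receptor chains IL13RA1 and IL13RA2 are grouped with this family here, although they do not pair with IL2RG. IL2RG, the shared chain, had 11.58, 11.58 and 11.46 in untreated replicates 1 to 3 and 11.53, 11.57 and 11.48 in CXCL12 replicates 1 to 3, at percentile 99.4 of all probe sets. The arrays of the groups overlapped completely, and the untreated arrays spanned 0.13 and the CXCL12 arrays 0.09 log2 units. The means were 11.54 ± 0.07 and 11.53 ± 0.05 (SD, n = 3 each). IL15RA, the private alpha chain for IL-15, had 7.45 ± 0.03 untreated and 7.43 ± 0.14 with CXCL12. IL9R, the IL-9 receptor chain, had 7.21 ± 0.19 and 7.31 ± 0.16, but this gene has near-identical pseudogene copies, so its signal is uncertain. IL4R, which binds IL-4 and pairs with IL2RG, had 6.68 ± 0.09 and 6.85 ± 0.04. IL2RB, the signalling chain shared by IL-2 and IL-15, had 6.46 ± 0.05 and 6.52 ± 0.08.

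Against these, 5 chains grouped in the same family were dim. IL7R, the IL-7 receptor alpha chain that marks naive T cells and several thymocyte stages, had 4.10, 4.16 and 3.79 in the untreated replicates and 4.29, 4.18 and 4.37 in those with CXCL12. Its CXCL12 arrays all lay above its untreated ones, the lowest of them only just. IL2RA, the inducible high-affinity chain for IL-2 (CD25), had 3.68 ± 0.08 untreated and 3.64 ± 0.15 with CXCL12. IL21R had 3.21 ± 0.16 and 3.73 ± 0.37. IL13RA1, which pairs with IL4R in non-lymphoid cells, had 2.87 ± 0.28 and 2.65 ± 0.22. IL13RA2, the decoy receptor for IL-13, had a mean of 2.64 over the 6 arrays. The signal at the shared chain and at IL4R, IL9R, IL15RA and IL2RB thus lay above the limit, and that of IL2RA, IL7R and IL21R below it.

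Chains of the IL-6 and IL-12 receptor families were above the limit in 5 of 8 cases. IL6ST, the shared signalling chain gp130, had 6.57 ± 0.11 untreated and 6.77 ± 0.14 with CXCL12. IL27RA, which pairs with IL6ST to bind IL-27, had 6.90 ± 0.05 and 7.33 ± 0.05. IL11RA, the private chain for IL-11, had 6.85 ± 0.21 and 6.90 ± 0.04. IL6R, the private chain for IL-6, had 5.12 ± 0.06 and 5.22 ± 0.23. IL12RB1, shared by the IL-12 and IL-23 receptors, lay at the limit with 4.47 ± 0.02 and 4.49 ± 0.08. Its partners IL12RB2 (3.88 ± 0.15 and 3.86 ± 0.22) and IL23R (a mean of 2.88) were dim, as was IL31RA.

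In the IL-10 receptor family, IL10RB, the chain shared by the receptors for IL-10, IL-22, IL-26 and the lambda interferons, had 7.54 ± 0.04 untreated and 7.26 ± 0.20 with CXCL12. Its partner for IL-10, IL10RA, lay at the limit with 4.50 ± 0.29 and 4.50 ± 0.11. IL20RB and IL22RA1 were above the limit with means of 4.77 and 5.18, and IL20RA and the soluble IL-22 binding protein IL22RA2 were dim, at 2.91 and 2.77. Of the IL-17 receptor family, IL17RA, the shared chain, had 7.84 ± 0.10 and 7.82 ± 0.09. IL17RC, IL17REL and IL17RE were also above the limit, with means of 6.38, 6.57 and 5.20, and IL17RB and IL17RD below it.

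Receptors of the IL-1 family were mostly dim, with 2 of 9 above the limit. These were IL1RAP, the shared accessory chain, with 5.42 ± 0.31 untreated and 5.48 ± 0.21 with CXCL12, and IL1R2, a decoy receptor for IL-1, with a mean of 5.37. IL18R1, the IL-18 binding chain of T helper 1 cells, had 3.17 ± 0.31 and 2.84 ± 0.42. The other 6, among them IL1R1 and IL1RL1, had means from 3.06 to 4.01. In the common beta chain family, IL5RA lay at the limit with 4.46 ± 0.17 and 4.50 ± 0.04, and IL3RA was dim with a mean of 3.22.

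Ligand families differed: the common gamma chain, common beta chain and IL-10 families were wholly dim, the IL-17 family was wholly above the limit, and the IL-1 and IL-6/IL-12 families held both kinds. All 6 ligands grouped with the common gamma chain were dim, among them IL13, which does not signal through that chain. IL2, the growth factor that activated T cells secrete, had 2.59, 2.58 and 2.82 without CXCL12 and 2.53, 2.69 and 2.66 with it, which overlap and lie in the lowest percent of probe sets. IL7 had 2.64 ± 0.10 and 2.69 ± 0.24, IL15 3.10 ± 0.03 and 2.97 ± 0.22, IL4 3.10 ± 0.18 and 3.09 ± 0.08, and IL21 3.57 ± 0.16 and 3.61 ± 0.12 (SD, n = 3 each). IL13 had a mean of 4.06. IL9 was not analysed here. The common beta chain ligands IL3 and IL5 and all 6 ligands of the IL-10 family were also dim, IL10 itself with 3.38 ± 0.09 untreated and 3.43 ± 0.24 with CXCL12.

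All 6 ligands of the IL-17 family were above the limit, with means from 5.03 (IL17B) to 6.45 (IL17D). Collagen and B-lineage probe sets were above the limit too, so a signal there was not read as expression. Of the IL-6 and IL-12 families, 4 of 7 ligands were above it. IL11 had 7.10 ± 0.05 untreated and 7.16 ± 0.13 with CXCL12. IL23A, the private subunit of IL-23, varied most between replicates of these, with 6.35, 6.60 and 7.29 when untreated and 7.04, 6.57 and 6.59 under CXCL12. IL12A had a mean of 6.33 and IL27, a subunit of IL-27, one of 5.51. IL6 was dim, with 3.07 ± 0.18 and 3.06 ± 0.14.

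Among the interleukin ligands, the probe set highest in the distribution was that of IL32, a cytokine made by T and natural killer cells. IL32 had untreated values of 10.10, 10.23 and 10.34 and CXCL12 values of 10.25, 10.09 and 9.96, at percentile 96.8, and the groups overlapped. IL16, a T-cell product unrelated in sequence to other interleukins, had a mean of 5.98, and IL34, a ligand of the CSF1 receptor, one of 6.67. In the IL-1 family 3 of 9 ligands were above the limit (IL36A, IL1F10 and IL36G). IL1B had untreated values of 2.80, 3.02 and 3.19 and CXCL12 values of 3.14, 3.21 and 3.87, which overlap. IL18 had 2.64 ± 0.05 and 2.64 ± 0.03. Of the antagonists and binding proteins, IL18BP, which neutralises IL-18, was well above the limit with 8.32 ± 0.17 and 8.17 ± 0.06, while IL1RN and IL36RN were dim.

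After 15 min of CXCL12, no interleukin gene passed the test for a difference. Among the 38 genes above the limit, the limma adjusted p ran from 0.927 to 0.999, and 0 passed at 0.05, against 0.0124% of the 16086 probe sets tested. Before adjustment, 3 of the 38 (7.89%) had a limma p under 0.05, against 4.73% of all probe sets: IL27RA and IL16 were higher with CXCL12 (2.72% of all probe sets were) and IL10RB lower (2.01%). The share among the 38 rests on 3 genes and was not tested against the background. For 36 of the 38 the 95% interval of the change lay within a 1.5-fold change in either direction. The same held for 89.9% of all tested probe sets. In bulk RNA, a change per cell and a change in the number of cells with the transcript cannot be told apart. Leaving out untreated replicate 1 left IL27RA alone with an unadjusted p under 0.05.

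**Figure D2:**
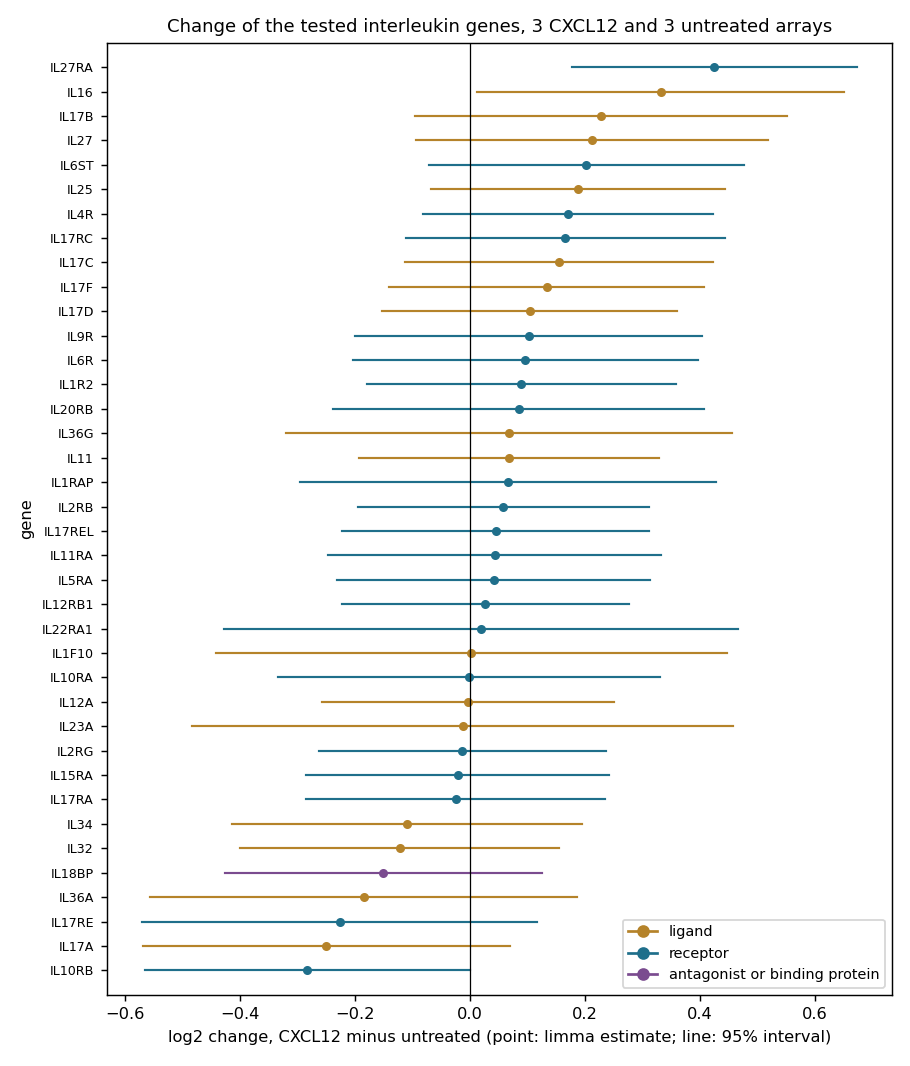
Log2 change with CXCL12 (x axis, CXCL12 minus untreated; points, limma estimates; lines, 95% intervals) for the 38 tested genes, ordered by change and coloured by role. The intervals of IL27RA, IL16 and IL10RB leave out 0, that of IL10RB by under 0.01, and the other 35 include it.

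IL27RA, the private chain of the IL-27 receptor, had the largest difference among the 38 genes above the limit. Its signal was 6.86, 6.89 and 6.96 in untreated replicates 1 to 3 and 7.29, 7.31 and 7.38 in CXCL12 replicates 1 to 3. The groups did not overlap, and the gap between them was wider than the range within either. The log2 change was 0.43 (SE 0.11, 95% interval 0.18 to 0.67), a ratio of 1.34 (limma adjusted p = 0.927). By unadjusted p it stood at place 45 of the 16086 probe sets tested. The change was between 0.40 and 0.45 with each array left out in turn and was 0.41 without untreated replicate 1. Its partner chain IL6ST had 6.57, 6.68 and 6.45 untreated and 6.66, 6.72 and 6.92 with CXCL12, which overlap, with a log2 change of 0.20 (95% interval -0.07 to 0.48, limma adjusted p = 0.996), and 0.13 without CXCL12 replicate 3. The cytokine subunit IL27 had a log2 change of 0.21 (95% interval -0.09 to 0.52), with overlapping arrays, and was 0.14 without untreated replicate 2 and 0.09 without CXCL12 replicate 2. EBI3, the other subunit of IL-27, named after its values were seen, was dim, with 3.98 ± 0.44 and 4.25 ± 0.16 (SD, n = 3 each).

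IL16, the precursor of a CD4-binding chemoattractant, had untreated values of 5.50, 5.99 and 5.94 and CXCL12 values of 6.05, 6.15 and 6.23. The groups did not overlap, but untreated replicate 1 lay far below the others of its group and the remaining gap was small. The log2 change was 0.33 (SE 0.15, 95% interval 0.01 to 0.65, limma adjusted p = 0.996). Without untreated replicate 1 it was 0.18, and its unadjusted p was above 0.05 there and without CXCL12 replicate 2 or 3. IL10RB had untreated values of 7.58, 7.51 and 7.53 and CXCL12 values of 7.12, 7.17 and 7.48. All CXCL12 arrays were below all untreated ones, but CXCL12 replicate 3 only just. The log2 change was -0.28 (SE 0.13, limma adjusted p = 0.996), and without CXCL12 replicate 3 it was -0.40. Its unadjusted p was above 0.05 when any array but CXCL12 replicate 3 was left out.

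**Figure D3:**
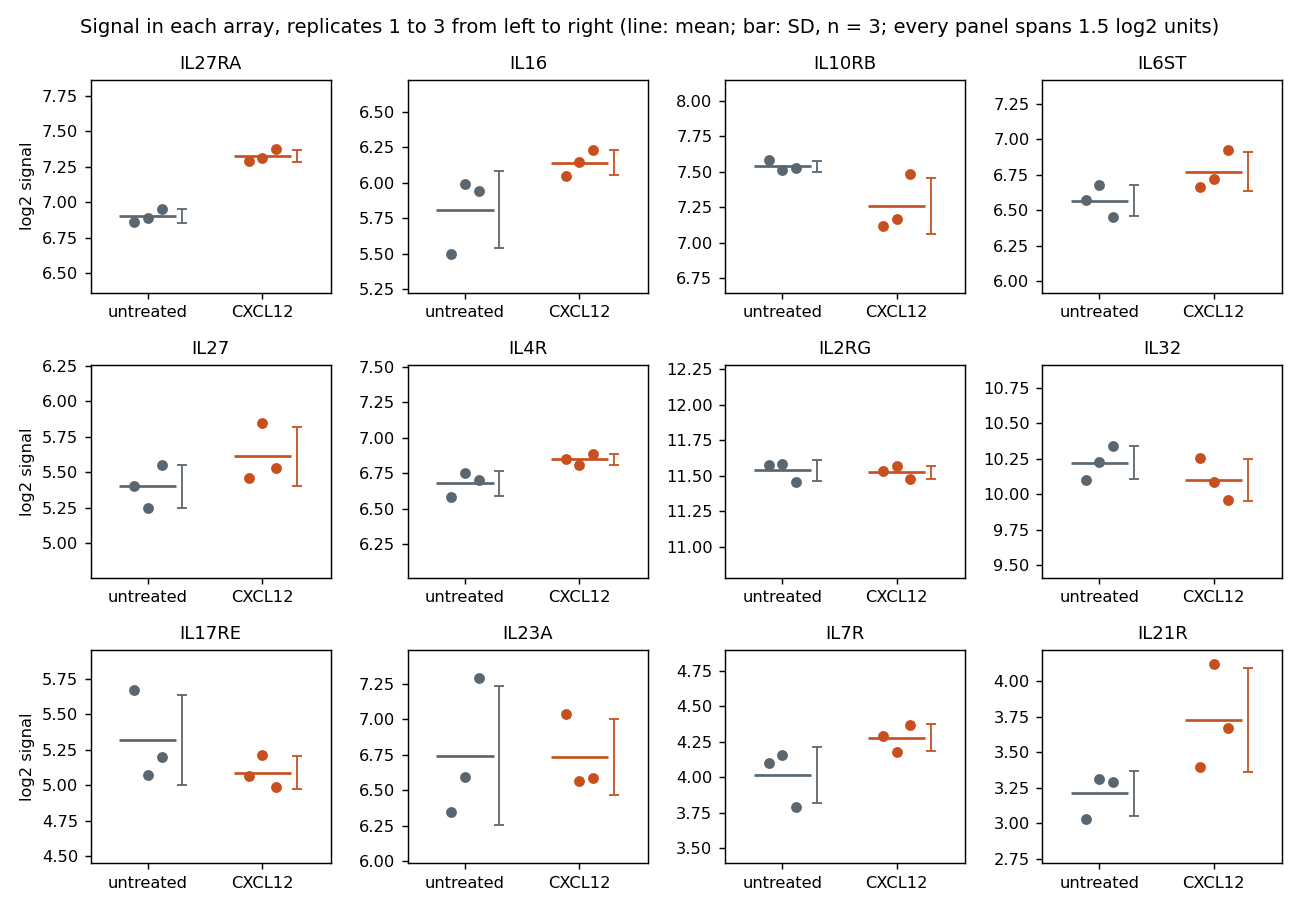
Log2 signal (y axis) of 12 interleukin genes in each of the 3 untreated and 3 CXCL12 arrays, with the mean (line) and SD (bar). The CXCL12 arrays of IL27RA, from 7.29 to 7.38, lie clear of the untreated arrays, from 6.86 to 6.96, while IL2RG and IL32 overlap and IL16, IL17RE and IL23A each have 1 untreated array far from the other arrays of its group.

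For 6 of the 38 genes (15.8%) the untreated and CXCL12 arrays were fully separate, against 9.54% of all tested probe sets. CXCL12 arrays were above for IL27RA, IL16, IL4R, IL17C and IL25 (5.05% of all probe sets) and below for IL10RB (4.48%). The log2 changes of IL4R and IL25 were 0.17 (95% interval -0.08 to 0.42) and 0.19 (-0.07 to 0.44), and IL17C, named after its values were seen, had 0.15. The other genes nearest to a difference upwards, IL17B (0.23), and downwards, IL17A (-0.25), IL17RE (-0.23), IL18BP (-0.15), IL36A (-0.18) and IL32 (-0.12), had overlapping arrays and limma adjusted p of 0.996. Single arrays moved several of these. With CXCL12 replicate 3 left out, IL17A was -0.10, IL17B 0.36 and IL32 -0.05. With CXCL12 replicate 2 left out, IL17A was -0.38 and IL17B 0.09. IL32 was -0.20 when CXCL12 replicate 1 was left out and -0.06 when untreated replicate 3 was. IL17RE, a chain of the IL-17C receptor, was high in 1 array only, at 5.68 in untreated replicate 1 against 5.08 and 5.20 in the other untreated arrays, and its change was -0.05 without that array. IL36A and IL18BP also had changes of -0.05 each without it, and IL36A had -0.40 without untreated replicate 3.

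**Figure D4:**
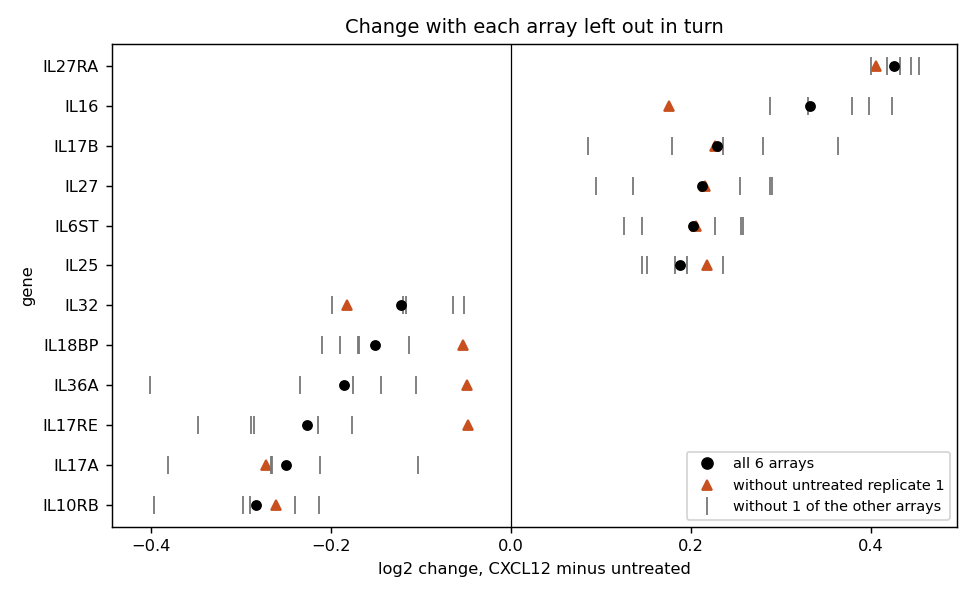
Log2 change (x axis, CXCL12 minus untreated) of the 6 genes with the smallest p in each direction, with all 6 arrays (black) and with each array left out in turn (marks; orange triangle, without untreated replicate 1). IL27RA stays between 0.40 and 0.45, while IL16 moves to 0.18 and IL17RE, IL36A and IL18BP to -0.05 without untreated replicate 1.

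Of the shared receptor chains, IL10RB and IL6ST are described with their arrays, and for IL2RG, IL17RA and IL1RAP, as for the IL-10 binding chain IL10RA, the 95% interval included 0. The log2 change was -0.01 for IL2RG (95% interval -0.26 to 0.24), -0.02 for IL17RA (-0.28 to 0.24), 0.07 for IL1RAP (-0.30 to 0.43) and -0.00095 for IL10RA (-0.33 to 0.33). The sign of each of these turned when single arrays were left out. IL2RB had 0.06 (-0.19 to 0.31), IL15RA -0.02 (-0.28 to 0.24), IL9R 0.10 (-0.20 to 0.40), IL6R 0.10 (-0.20 to 0.40), IL11RA 0.04 (-0.25 to 0.33) and IL12RB1 0.03 (-0.22 to 0.28). IL6R was 0.0023 with CXCL12 replicate 2 left out and 0.23 with CXCL12 replicate 3 left out. Among ligands, IL11 had 0.07 (-0.19 to 0.33) and IL23A -0.01 (-0.48 to 0.46), with IL23A at 0.26 without untreated replicate 3 and -0.21 without untreated replicate 1.

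Changes were positive for 15 and negative for 6 of the 21 tested receptor chains (median 0.05). Positive changes numbered 10 and negative ones 6 among the 16 tested ligands (median 0.07). Over all tested probe sets the median was 0.0023, with 8148 positive and 7938 negative. The mean deviation of the receptor chains from their untreated mean was 0.08, 0.05 and 0.03 in CXCL12 replicates 1 to 3 and 0.01, 0.03 and -0.03 in the untreated ones, and that of the ligands 0.09, 0.08 and -0.01 against 0.05, -0.06 and 0.01. The groups overlapped in both. The ligand median was -0.0031 when the lower 50% of probe sets were left out, 0.14 without untreated replicate 1 and 0.03 without CXCL12 replicate 1. All 5 tested chains of the IL-6 and IL-12 receptor families had positive changes, from 0.03 to 0.43. Of these, IL11RA was -0.06 without untreated replicate 3, and IL12RB1 was -0.02 without CXCL12 replicate 1 and also negative under quantile normalization and cyclic loess. Of the 6 IL-17 family ligands 5 had positive changes.

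The 45 dim genes were compared in a fit without the filter, where the lowest limma adjusted p of any interleukin gene was 0.992. Their arrays did not overlap for 4 genes (8.89%), against 9.68% of all dim probe sets, all 4 with CXCL12 above (6.04% of dim probe sets): IL7R, IL21R, IL22 and IL26, of which IL22 and IL26 are named after their values were seen. IL21R, the private chain for IL-21, had untreated values of 3.03, 3.31 and 3.29 and CXCL12 values of 3.40, 4.12 and 3.67. CXCL12 replicate 2 was the highest, and replicate 1 lay close to the untreated arrays. Its log2 difference was 0.52 (limma adjusted p = 0.992). IL26, a cytokine of the IL-10 family, had 3.87, 3.32 and 3.71 and then 4.12, 3.90 and 4.14, a difference of 0.42 (limma adjusted p = 0.992). In all, 4 of the 83 genes had an unadjusted p under 0.05 in this fit (4.82%), against 4.66% of all probe sets: IL16, IL27RA, IL21R and IL26. IL7R had a difference of 0.26 (95% interval -0.04 to 0.56), IL2RA -0.04 and IL2 -0.04.

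The signalling genes downstream of interleukin receptors were present above the limit in most cases, and none passed the test. Of the kinases, JAK3, which docks on the common gamma chain and is named after its values were seen, had 7.88 ± 0.11 untreated and 7.82 ± 0.07 with CXCL12, and JAK2 and TYK2 had log2 changes of 0.16 (95% interval -0.31 to 0.63) and 0.09 (-0.18 to 0.36). All 4 JAK genes were tested, 2 with positive and 2 with negative changes. Of the 5 STAT genes tested, 4 had positive changes and 1 a negative one, with a median of 0.18. The negative one was STAT3, named after its values were seen, at -0.12 (95% interval -0.38 to 0.14). Its CXCL12 arrays lay below its untreated ones, as for 4.48% of all tested probe sets. STAT5A and STAT5B, the main targets of the common gamma chain receptors, had 0.21 (-0.07 to 0.49) and 0.22 (-0.08 to 0.52), with overlapping arrays.

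Of 12 feedback inhibitors tested, 4 had positive and 8 negative changes, with a median of -0.09, and 1 had an unadjusted limma p under 0.05, against 4.73% of all tested probe sets (2.01% lower with CXCL12). This was PTPN6, the phosphatase SHP-1, with 8.24 ± 0.17 untreated and 7.89 ± 0.10 with CXCL12 (SD, n = 3 each). Its log2 change was -0.35 (95% interval -0.63 to -0.06, limma adjusted p = 0.996), and all its CXCL12 arrays lay below the untreated ones, as for 4.48% of all tested probe sets. SOCS6 had 0.25 (-0.02 to 0.53), with CXCL12 arrays above the untreated ones, as for 5.05% of all tested probe sets. CISH and SOCS3, which JAK-STAT signalling induces, had -0.27 (-0.68 to 0.14) and -0.05 (-0.41 to 0.31). SOCS1 and SOCS2 of the same list went the other way, with 0.22 (-0.08 to 0.53) and 0.10 (-0.22 to 0.42). CISH, SOCS3, SOCS1 and SOCS2 were named after their values were seen. Of 5 adaptors of the IL-1 and IL-17 receptors tested, 1 was higher with CXCL12 and 4 were lower (median -0.03), with SIGIRR, an inhibitory member of the IL-1 receptor family, at -0.10 and TOLLIP at 0.10. Of 10 tested cytokines and shared chains with other names, 6 had positive and 4 negative changes (median 0.04). TSLP, a relative of IL-7, had 0.24 (-0.02 to 0.50) with CXCL12 arrays above the untreated ones, and CNTFR had -0.16 (-0.47 to 0.16).

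Replicates of the same group differed for some interleukin genes, but how much of the variation lay between replicates was not computed. Untreated replicate 1 held the highest or lowest of the 6 values for 19 of the 38 tested genes (50%), against 49.2% of all tested probe sets, so the interleukin genes shared the standing of that array and did not exceed it. The share ran from 23.7% to 36.8% for the other 5 arrays, against 26% to 34.8% of all tested probe sets. The widest spreads within a group were in the untreated arrays: IL1F10 ranged over 1.01, IL23A over 0.95 and IL22RA1 over 0.89 log2 units. IL22RA1 was high in untreated replicate 2 alone, at 5.76 against 4.87 and 4.89.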

How the data were processed

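Expression was measured on 6 Affymetrix arrays, and the authors deposited log2 signals, 1 for each probe set in each array. The submitters' processing notes name RMA and the Transcriptome Analysis Console; for settings and genome build, nothing is given in the sources used here. Detection calls and scan batches were not examined, since no scanner files were used. Precision is limited by the number of arrays. Of 21448 probe sets, 17709 had 1 gene symbol in the platform annotation, which can be old. All 83 member symbols occur in the RefSeq table (GRCh38.p14).

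The deposited log2 values were fitted as they stand by lmFit and eBayes of limma 3.58.1 (R 4.3.3), as a two-sided test over 6 arrays without covariates. Those under the 25th percentile of all probe-set means were dropped, and p-values were adjusted by Benjamini-Hochberg over the remaining 16086. Changes are CXCL12 minus untreated. The fit was tested on simulated data. Named genes were those past the threshold, the 6 with the smallest p in each direction, the 10 with the highest mean, the 3 nearest the limit on each side, and a set fixed by name; of each pathway list, the 2 with the smallest p. Other members are given with their family. Members, roles and lists were chosen with earlier results of these data known. Same-numbered replicates were not taken as pairs: no pairing is stated, and the correlations of their deviations were -0.19, -0.11 and 0.11. Alternatives were other filters, renormalization, a replicate block, array weights, another prior, averaged probe sets, other limits and leaving out each array.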

Additional observations from a re-analysis of the deposited data

How the results depend on the processing

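No interleukin gene passed at an adjusted p of 0.05 or 0.10 in any fit, and the lowest adjusted p was 0.540 (IL27RA with array weights). The count of 3 with an unadjusted limma p under 0.05 became 4 without a filter. It was 2 with the lower 50% left out, each renormalization, the replicate block (IL16 and IL27RA) or array weights. When each array was left out, it ran from 1 (without untreated replicate 1) to 3. The share among members lay above that of all tested probe sets in some fits and below it in others. With the lower 50% left out it was 10% of 20 genes against 3.84%, and without CXCL12 replicate 3 it was 7.89% against 3.39%. With array weights it was 5.26% against 6.51%, and without untreated replicate 1 it was 2.63% against 4.96%. IL27RA had an unadjusted limma p under 0.05 in every fit. The 2 probe sets past the adjusted threshold became 1 without a filter, under median centring or cyclic loess. They became 3 with the lower 50% left out or with the other prior, and 4 with array weights. With an array left out, the count ran from 1 to 2. The shares above the limit were 17.9% (ligands) and 29.3% (receptors) at the 50th percentile and otherwise 39.0% to 41.0% and 51.2% to 52.5%. The median change of ligands was -0.0031 with the lower 50% left out and ran from 0.026 to 0.136 with an array left out; that of receptors stayed between 0.018 and 0.070. The replicate block gave the same changes and no call at the adjusted threshold changed. Of 26 named genes tested, 11 turned sign in some fit, none past a threshold. With array weights IL10RA was 0.0687, IL15RA 0.0023, IL17RA 0.0111, IL1RAP -0.0358 and IL2RG 0.0040; IL2RG was 0.0138 with cyclic loess; and IL12RB1 was -0.0108 with quantile normalization and -0.0035 with cyclic loess. With an array left out, IL10RA ran from -0.17 to 0.10, IL11 from -0.00089 to 0.12, IL11RA from -0.0585 to 0.15, IL12RB1 from -0.0181 to 0.0502, IL15RA from -0.10 to 0.0398, IL17RA from -0.0757 to 0.0204, IL1RAP from -0.0869 to 0.22, IL23A from -0.21 to 0.26, IL2RG from -0.0544 to 0.0113, IL5RA from -0.0537 to 0.10 and IL9R from -0.0074 to 0.18. The causes were not tested. Among the 38 genes, unadjusted 95% intervals reached a median of 0.28 log2 units to each side, so smaller changes could not be resolved. After adjustment over 16086 probe sets, larger changes were not called either: IL27RA, at 0.43, had a limma adjusted p of 0.927.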
